A study of Bos taurus with 4 samples.

Results

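The miR-26 family was followed together with the genes that carry it in primary epithelial cells from the mammary gland of Chinese Holstein cows. The members were all small RNA sequence tags assigned to a precursor whose name starts with bta-mir-26a or bta-mir-26b, and the counts of the host genes CTDSP1, CTDSP2 and CTDSPL. They came to 27 of 2792 tags in the HH small RNA library and 27 of 2948 in the LL small RNA library, or 35 distinct tags of which 19 were found in both. These tags belonged to 3 of 371 precursors, and the hosts were 3 of 31021 genes. The codes HH and LL stand in the titles of 4 libraries, 1 for RNA-seq and 1 for small RNA under each code. The study's design text gives milk fat percentages of 4.85% for the high and 3.41% for the low cows. The phenotype label follows the kind of library instead (high milk fat for RNA-seq, low milk fat for small RNA), so it cannot tell HH from LL, and directions are given by the library codes. Under both codes the cells were grown out of mammary tissue and released with enzymes, and the cattle ate corn and hay. The number of cows behind a library, not given in the sources used here, could not be stated.

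MicroRNAs are short RNAs that guide Argonaute proteins to messenger RNAs, and the pairing rests mainly on the seed, bases 2 to 8 of the mature strand. Mature miR-26a and miR-26b carry the same seed. In mammals their precursors lie within introns of the CTDSP genes, which encode small phosphatases acting on the tail of RNA polymerase II and on other proteins, and which repress neuronal genes together with the repressor REST. In goat mammary epithelial cells miR-26 and its hosts have been linked to milk fat synthesis through INSIG1, a brake on the sterol response factors.

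The tags that carry the results are printed from the deposited files as DNA letters, with the seed in capitals, because the finding lies in where they end. No reference for the mature ends was used, so a 22-nt tag is called complete and a shorter one shortened, by length alone. For miR-26a they are the complete sequence and the shortened forms of 1 arm:
miR-26a, 22 nt: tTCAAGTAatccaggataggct
miR-26a, 21 nt: tTCAAGTAatccaggataggc
miR-26a, 20 nt: tTCAAGTAatccaggatagg
miR-26a, 19 nt: tTCAAGTAatccaggatag
miR-26a, 18 nt: tTCAAGTAatccaggata

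The matching tags of miR-26b show that the family members share every base between positions 12 and 20:
miR-26b, 22 nt: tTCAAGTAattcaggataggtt
miR-26b, 21 nt: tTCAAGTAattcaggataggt
miR-26b, 20 nt: tTCAAGTAattcaggatagg
miR-26b, 19 nt: tTCAAGTAattcaggatag
miR-26b, 18 nt: tTCAAGTAattcaggata

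Counted from 1 at the 5′ end, the 22-nt sequences differ by C11T and C21T, with the miR-26a base first. Each of the tags printed above keeps the seed whole. The rare tags that begin after base 1, counted with the others by length, can lack seed bases. No tag of any other precursor held this seed at bases 2 to 8 in either library, or anywhere in its sequence. All 5′-arm tags of bta-mir-26a-1 lay within 1 continuous sequence, as did those of bta-mir-26b, and none carried a mismatch or a tail outside it. The lists may have been limited to exact matches, as the matching settings were not stated.

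The totals of miR-26 reads differed by less than 2-fold between the libraries, while the length of the miR-26a reads differed more. No listed tag was shorter than 18 nt in either library, so any shorter reads are missing from the totals, ratios, shares and mean lengths. At 18 nt itself lay 1.21% of bta-mir-26a-1 reads in HH and 17.6% in LL, so such a loss could differ between the libraries. Precursor bta-mir-26a-1 had 3892 reads in HH and 3720 in LL, and bta-mir-26b had 4133 reads in HH and 3149 in LL. Per 1000000 miRNA reads, written RPM, this was 549 RPM in HH and 411 RPM in LL for bta-mir-26a-1. For bta-mir-26b it was 583 RPM in HH and 348 RPM in LL. By level bta-mir-26b ranked 36 of the 307 precursors listed in HH and 43 of the 348 in LL, and bta-mir-26a-1 ranked 37 in HH and 39 in LL. Both precursors thus sat close together in the upper part of each library. The family as a whole took 0.113% of the HH miRNA reads and 0.0759% of the LL reads.

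**Figure D1:**
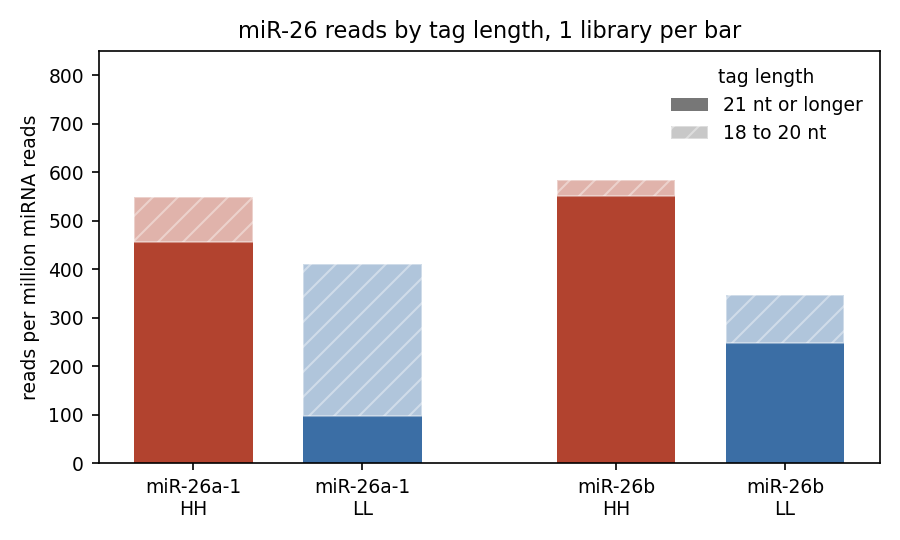
Reads per 1000000 miRNA reads (vertical axis) of bta-mir-26a-1 and bta-mir-26b in the HH and LL small RNA libraries, split into tags of 21 nt or longer (solid) and tags of 18 to 20 nt (hatched), 1 library per bar. The solid part of the bta-mir-26a-1 bar is 457 RPM in HH and 97.4 RPM in LL, while the whole bar is 549 RPM in HH and 411 RPM in LL.

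The third precursor, bta-mir-26a-2, had 1 read in HH and 3 in LL, at or under the 3 reads that a count of 0 allows, so no ratio is given. Its 2 distinct 5′-arm tags each carried 1 extra leading base, and without it both had the sequence of a bta-mir-26a-1 tag. No tag in the files was listed under more than 1 precursor. Reads of mature miR-26a are therefore listed almost wholly under bta-mir-26a-1, and those from the gene in CTDSPL and the gene in CTDSP2 cannot be told apart.

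Library totals were scaled with TMM factors, and each HH over LL ratio carries an exact 95% interval, taken from the share of its reads that HH supplied. A difference was called when this whole interval lay past 2-fold, among precursors with at least 100 reads over both libraries. With 1 library per code there is no replicate check, so each comparison is between these libraries and not between the conditions. Intervals cover counting error only, and without molecular identifiers a read need not be a separate molecule. The log2 ratio of all reads was 0.36 (0.30 to 0.43) for bta-mir-26a-1 and 0.69 (0.62 to 0.76) for bta-mir-26b. Neither was called, where 16.8% of 143 precursors were called higher in HH and 11.2% higher in LL. From the highest ratio in HH downward, bta-mir-26b stood at place 43 and bta-mir-26a-1 at place 62 of 143, and the median precursor was at 0.24. The summed family was at 0.52 (0.48 to 0.57).

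The ratios of both precursors depend on the scaling. DESeq2 size factors shift every miRNA ratio by −0.18 and upper-quartile scaling by −0.30, which leaves bta-mir-26a-1 at 0.18 and 0.063 and bta-mir-26b at 0.51 and 0.39. Under upper-quartile scaling 47.4% of the called precursors were higher in HH, in place of 60%. The GC content of the 22-nt sequence was 40.9% for miR-26a and 31.8% for miR-26b, both in the third of precursors with the lowest GC content, whose median log2 ratio was 0.59. Less a straight line on GC content, an alternative chosen after seeing the data, the log2 ratios were −0.11 and −0.13.

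Within the family the balance of the members differed between the libraries, a measure that needs no scaling. By precursor name miR-26a made up 48.5% of the miR-26 reads in HH (exact 95% interval 47.4 to 49.6%) and 54.2% in LL (53.0 to 55.4%). Among tags of 21 nt or longer the order turned round: miR-26a made up 45.3% in HH (44.2 to 46.5%) and 28.2% in LL (26.7 to 29.9%). Among tags of 18 to 20 nt it made up 74.4% in HH (71.4 to 77.2%) and 75.9% in LL (74.5 to 77.3%), with intervals that overlap. The direction of the difference between libraries thus depended on which tag lengths were counted. The log2 odds ratio of miR-26b over miR-26a, HH over LL, was 0.33 (0.23 to 0.42) over all tags and −1.08 (−1.21 to −0.95) over tags of 21 nt or longer.

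Most miR-26a reads were complete in HH and shortened in LL. The 22-nt tag of miR-26a had 2834 reads in HH and 734 in LL, or 72.8% of the reads of its precursor in HH (71.4 to 74.2%) and 19.7% in LL (18.5 to 21.05%). The 19-nt tag ran the other way, with 309 reads in HH and 1846 in LL, or 7.94% in HH (7.11 to 8.83%) and 49.6% in LL (48.0 to 51.2%). In LL the 19-nt tag was the most abundant tag of the precursor. The 18-nt tag had 47 reads in HH and 635 in LL. The 21-nt tag had 355 reads in HH and 118 in LL. Between them the 20-nt tag was nearly level, with 291 reads in HH and 327 in LL. The mean length of 5′-arm reads of bta-mir-26a-1 was 21.5 nt in HH and 19.6 nt in LL.

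**Figure D2:**
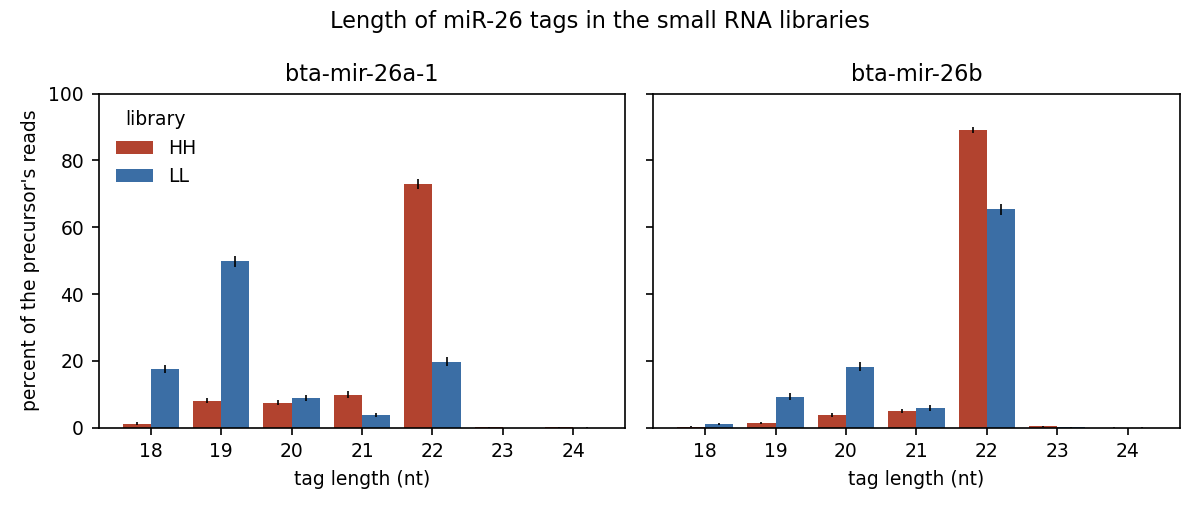
Percent of the reads of bta-mir-26a-1 (left) and bta-mir-26b (right) at each tag length in nt, in HH and LL, with exact 95% counting intervals. For bta-mir-26a-1 the peak is at 22 nt in HH (72.9%) and at 19 nt in LL (49.8%), while bta-mir-26b peaks at 22 nt in both (89.0% in HH and 65.4% in LL).

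For miR-26b the complete tag led in both libraries. Its 22-nt tag had 3679 reads in HH and 2058 in LL, or 89.0% of the precursor in HH (88.0 to 90.0%) and 65.4% in LL (63.7 to 67.0%). Its main shortened form was the 20-nt tag, with 153 reads in HH and 575 in LL, or 3.70% in HH (3.15 to 4.32%) and 18.3% in LL (16.9 to 19.7%). The 19-nt tag had 41 reads in HH and 290 in LL. Unlike these, the 21-nt tag made up similar shares, 5.01% in HH and 5.87% in LL, with overlapping intervals. The 18-nt tag had 13 reads in HH and 31 in LL. The mean length of the 5′-arm reads was 21.8 nt in HH and 21.3 nt in LL.

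The shortened forms of the family members differed in where they ended, most clearly in LL. In LL the tags of miR-26a that began at base 1 ended at base 19 in 50.4% of reads and at base 20 in 8.93%. Those of miR-26b ended at base 19 in 9.22% and at base 20 in 18.3%. In HH the shares of miR-26a were close, 8.03% at base 19 and 7.57% at base 20. For miR-26b they were 0.997% at base 19 and 3.72% at base 20 in HH. The bases at positions 12 to 20, printed above, are the same in both, while those at positions 11 and 21 differ. The part of the sequence in where the tags end was not tested.

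Taken as tags of 18 to 20 nt, shortened reads were 16.9% of bta-mir-26a-1 in HH (15.7 to 18.1%) and 76.3% in LL (74.9 to 77.6%). For bta-mir-26b they were 5.47% in HH (4.79 to 6.21%) and 28.6% in LL (27.0 to 30.2%). The log2 odds of a shortened read, HH over LL, were −3.99 (−4.15 to −3.82) for bta-mir-26a-1 and −2.79 (−3.02 to −2.56) for bta-mir-26b. The interval for bta-mir-26a-1 lay wholly below that for bta-mir-26b. Within each library miR-26a was the more shortened of the pair, with log2 odds over miR-26b of 1.81 (1.58 to 2.04) in HH and 3.01 (2.85 to 3.17) in LL.

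Short tags were more common in the LL library as a whole, and this moved with the miR-26 result. They made up 6.85% of all HH miRNA reads and 19% of all LL miRNA reads. Among 73 precursors with at least 500 reads in each library, 72.6% had a higher share of short tags in LL with intervals apart, both miR-26 precursors included, and 5.48% had a higher share in HH. For the other 71 the share had a median of 5.28% in HH and 11.5% in LL, and the median gap, HH minus LL, was −4.01 percentage points (quartiles −15.9 and −0.35). The gap was −59.4 points for bta-mir-26a-1 and −23.1 points for bta-mir-26b. Ordered from the widest gap towards LL, bta-mir-26a-1 was at place 2, after bta-mir-125a, and bta-mir-26b at place 17. With a minimum of 100 reads, chosen after seeing the data, bta-mir-26a-1 was again at place 2, of 116, and bta-mir-26b at place 28. The part of this library-wide shift in the miR-26 result was not tested.

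**Figure D3:**
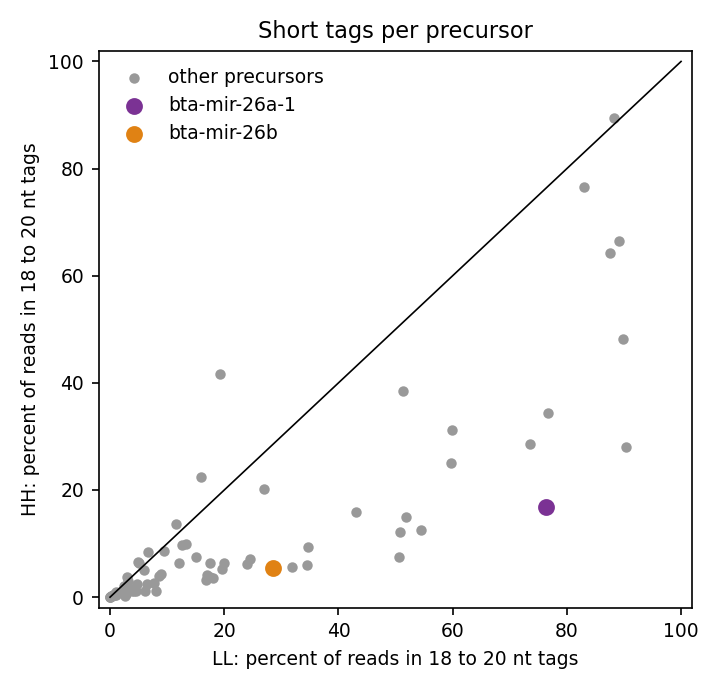
Share of reads in tags of 18 to 20 nt for each of 73 precursors, with HH on the vertical and LL on the horizontal axis in percent, and the line of equal shares. Precursor bta-mir-26a-1 lies at 16.9% in HH and 76.3% in LL, far below the line, and bta-mir-26b lies at 5.47% in HH and 28.6% in LL.

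The single tags spread around the ratios of the whole precursors. On the scale set by all miRNA reads, the 22-nt tag of miR-26a had a log2 ratio of 2.25 (2.13 to 2.37), a 4.75-fold difference, and the 21-nt tag was at 1.89 (1.58 to 2.20). Its 20-nt tag was at 0.13 (−0.10 to 0.36), an interval that holds no change. Its 19-nt tag was at −2.28 (−2.46 to −2.10) and its 18-nt tag at −3.46 (−3.92 to −3.03). Thus the shorter the miR-26a tag, the lower its ratio. The 22-nt tag of miR-26b was at 1.14 (1.06 to 1.22), the 21-nt tag at 0.46 (0.17 to 0.76), the 20-nt tag at −1.61 (−1.88 to −1.35) and the 19-nt tag at −2.52 (−3.03 to −2.05). Of these 9 tags, each with at least 1% of its precursor's reads in 1 library or both, 3 were called higher in HH and 4 higher in LL. The 19-nt tag of miR-26b, called higher in LL, passed that minimum only in LL (0.99% in HH and 9.21% in LL). Over 619 single tags with at least 100 reads, 19.7% were called higher in HH and 27.1% higher in LL. The call of the 22-nt miR-26b tag was lost under DESeq2 size factors (0.95) and upper-quartile scaling (0.84), and the calls of the other 6 held under all 3 other scalings.

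Counting only reads of 21 nt or longer on the same scale, bta-mir-26a-1 had 3236 reads in HH and 882 in LL, and its log2 ratio was 2.17 (2.07 to 2.28). Precursor bta-mir-26b had 3907 reads in HH and 2249 in LL, at 1.10 (1.02 to 1.17). Both were called, where 30.1% of 133 precursors were called higher in HH and 6.77% higher in LL. The call of bta-mir-26b was lost under DESeq2 size factors (0.91) and upper-quartile scaling (0.79). When the scaling too was taken from these longer tags, bta-mir-26a-1 was at 1.66 (1.55 to 1.77) and was called. Precursor bta-mir-26b was at 0.58 (0.51 to 0.66) and was not, where 16.5% of 133 precursors were called higher in HH and 14.3% higher in LL. Reads of 18 to 20 nt went the other way, with 656 in HH and 2838 in LL for bta-mir-26a-1 (−1.81, interval −1.94 to −1.69). For bta-mir-26b they numbered 226 in HH and 900 in LL (−1.69, interval −1.91 to −1.48). Both were called higher in LL, where 42.2% of 90 precursors were, and 4.44% were called higher in HH.

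**Figure D4:**
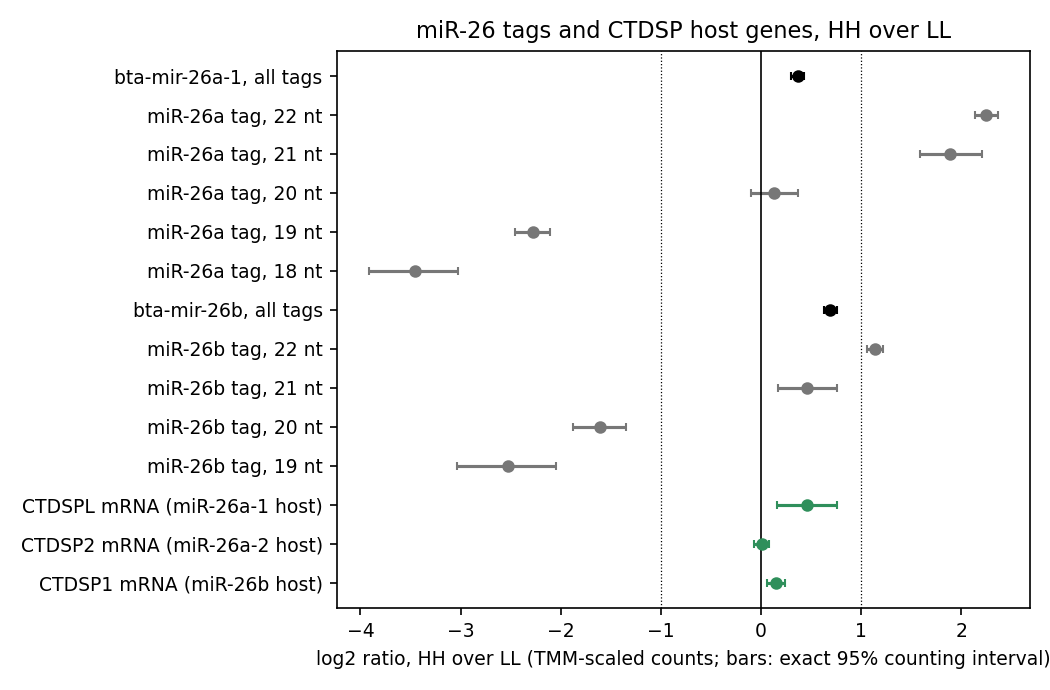
Log2 ratios of HH over LL (horizontal axis, TMM-scaled counts) with exact 95% counting intervals for miR-26 precursors (black), their tags by length (grey) and the host genes (green); dotted lines mark 2-fold. Tags of miR-26a run from 2.25 at 22 nt to −3.46 at 18 nt around a precursor value of 0.36, and the hosts lie between 0.00 and 0.46.

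The 5′ end, which sets the seed, hardly varied. Tags beginning at base 1 made up 98.8% of bta-mir-26a-1 reads in HH (98.4 to 99.1%) and 98.5% in LL (98.0 to 98.8%). For bta-mir-26b they made up 99.5% in HH (99.3 to 99.7%) and 99.9% in LL (99.7 to 99.97%). Tags longer than 22 nt were rare, with 11 reads in HH and 3 in LL for bta-mir-26a-1, and 20 in HH and 6 in LL for bta-mir-26b. The difference between the libraries was thus in the 3′ ends.

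Nearly all reads came from the 5′ arm, the arm usually loaded into Argonaute in this family. The 3′ arm of bta-mir-26a-1 had 4 reads in HH and 21 in LL, or 0.103% of the precursor in HH (0.028 to 0.263%) and 0.565% in LL (0.350 to 0.862%). These intervals do not overlap, but they rest on few reads, and the log2 ratio of −2.09 (−4.10 to −0.53) was not called. For bta-mir-26b the 3′ arm had 0 of 4133 reads in HH and 0 of 3149 in LL, which allows shares of up to 0.0726% in HH and 0.0953% in LL. The 3′ arms tell the copies of miR-26a apart, which the 5′ arm does not, so the leading tag of bta-mir-26a-1 and the complete one of bta-mir-26a-2 are shown:
miR-26a-1, 3′ arm: cctattctcggttacttgcac
miR-26a-2, 3′ arm: cctattcttgattacttgtttc

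The tag of bta-mir-26a-1 had 3 reads in HH and 18 in LL, and that of bta-mir-26a-2 had 0 in HH and 1 in LL. A longer 3′-arm tag of bta-mir-26a-2 also had 0 reads in HH and 1 in LL. At this depth the share of the second copy was not measurable.

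The RNA-seq libraries held 17369144 counts in HH and 16318951 in LL, and the small RNA lists held 7087726 miRNA reads in HH and 9059038 in LL. The 7 epithelial markers summed to 6274 counts per 1000000 (CPM) in HH and 3549 CPM in LL, with KRT18, KRT5 and KRT14 called higher in HH and none in LL. Of 12804 genes with at least 100 counts, 1.87% were called higher in HH and 1% higher in LL. The other markers were present too: fibroblast markers summed to 364 CPM in HH and 282 CPM in LL, and endothelial markers to 607 CPM in HH and 757 CPM in LL. Immune markers summed to 218 CPM in HH and 206 CPM in LL, and adipocyte markers to 6.33 CPM in HH and 5.70 CPM in LL. Sums can hide members that go opposite ways. Of the immune markers 2 had log2 ratios above 0 and 2 below, and of the fibroblast markers 3 above and 2 below. Each marker had counts in at least 1 library, and LEP had 1 count in HH and 0 in LL. The part of these cell types in the results was not tested, and in bulk RNA fewer cells of a type and less RNA per cell cannot be told apart.

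None of the host genes differed by as much as 2-fold between the RNA-seq libraries. By RefSeq's gene positions on ARS-UCD2.0, MIR26A-1 lies inside CTDSPL, MIR26A-2 inside CTDSP2 and MIR26B inside CTDSP1. CTDSPL, a phosphatase that acts on the retinoblastoma protein, had 240 counts in HH and 159 in LL, or 13.8 CPM in HH and 9.74 CPM in LL. Its log2 ratio was 0.46 (0.16 to 0.75), above that of 86.7% of 12804 genes with at least 100 counts. CTDSP2 had 2844 counts in HH and 2577 in LL, or 164 CPM in HH and 158 CPM in LL, with a log2 ratio of 0.00 (−0.07 to 0.08). CTDSP1 had 2257 counts in HH and 1845 in LL, or 130 CPM in HH and 113 CPM in LL, at 0.15 (0.06 to 0.24). The intervals of CTDSP1 and CTDSPL lay above 0 and that of CTDSP2 held 0. How many of all genes had intervals clear of 0 was not counted, so no lean to HH is read from this. None of the 3 hosts was called, where 1.87% of genes were called higher in HH and 1% higher in LL.

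The hosts encode similar proteins, and reads that fit more than 1 of them, or the opposite strand, may have been counted in ways the labels do not state. Beside the hosts, bta-mir-26a-1, whose reads may come from either miR-26a gene, stood at 0.36, with CTDSPL at 0.46 and CTDSP2 at 0.00. Precursor bta-mir-26b stood at 0.69, with CTDSP1 at 0.15. The small RNA and RNA-seq tables were scaled separately, so the difference between a precursor and its host was not tested.

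The wider list of RNA polymerase II tail phosphatases and related phosphatases held no called gene. Over all genes tested 1.87% were called higher in HH and 1% higher in LL. All 9 listed genes were measured, 4 had ratios above 0 and 5 below, and their median log2 ratio was −0.09, beside −0.01 over all genes tested. The largest ratios were those of RPAP2, an RNA polymerase II phosphatase, at −0.53 (−0.86 to −0.19), CTDSPL at 0.46, and UBLCP1, a phosphatase of the proteasome, at −0.24 (−0.39 to −0.08). Of REST and its partners none of 7 was called, beside the same shares over all genes, and the median was −0.04. REST itself had 229 counts in HH and 276 in LL (−0.41, interval −0.67 to −0.15), its co-repressor RCOR1 was at −0.31 and the scaffold SIN3A at 0.21.

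Among genes of the retinoblastoma pathway, on which CTDSPL acts, 1 of 9 tested was called higher in HH and none in LL, with 2 listed genes below the minimum. Over all genes tested 1.87% were called higher in HH and 1% higher in LL. The called gene was CCND1, which encodes cyclin D1, with 252 counts in HH and 52 in LL, or 14.5 CPM in HH and 3.19 CPM in LL. Its log2 ratio was 2.14 (1.70 to 2.60), and the median of the list was 0.13. The retinoblastoma gene RB1 had 1028 counts in HH and 709 in LL (0.40, interval 0.26 to 0.54). The cyclin gene CCNE2 had 96 counts in HH and 64 in LL (0.45, interval −0.02 to 0.93).

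Genes named as miR-26 targets in earlier work, mostly in other tissues and species, did not stand to 1 side. Of 29 listed genes 24 were tested and none was called in either direction. Over all genes tested 1.87% were called higher in HH and 1% higher in LL. In the list 10 genes had ratios above 0 and 14 below, and the median was −0.07, beside −0.01 over all genes tested. LIN28B was not in the table, HMGA2 had 0 counts in both libraries, and CCNE1, PTGS2 and SLC7A11 were below the minimum. The largest ratios were those of PLOD2, a collagen lysyl hydroxylase, with 161 counts in HH and 78 in LL (0.91, interval 0.51 to 1.32). LOXL2, a lysyl oxidase, had 52 counts in HH and 79 in LL (−0.74, interval −1.27 to −0.22). ADAM17, a protease that sheds membrane proteins, had 2311 counts in HH and 1349 in LL (0.64, interval 0.54 to 0.74). INSIG1, named outside the rule for its link to miR-26 in goat mammary cells, had 853 counts in HH and 501 in LL (0.63, interval 0.47 to 0.79). EZH2, the histone methyltransferase reported as a miR-26a target in human and mouse cells and also named outside the rule, had 1025 counts in HH and 1242 in LL (−0.41, interval −0.54 to −0.29). Some listed targets thus leaned to HH and others to LL.

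Of the enzymes that add tails to RNAs or trim 3′ ends none of 8 was called, and the median was 0.06. Over all genes tested 1.87% were called higher in HH and 1% higher in LL, and the median was −0.01. The part of these enzymes in the tag lengths was not tested. ZCCHC11, also called TUT4, the enzyme reported to add uridine to miR-26a in human cells, had 1400 counts in HH and 1231 in LL (0.05, interval −0.06 to 0.16). PARN, a nuclease that shortens 3′ ends, had 860 counts in HH and 782 in LL (0.00, interval −0.14 to 0.14). The largest ratios were those of the polymerase genes PAPD7 at 0.30 (0.14 to 0.46), TUT1 at −0.26 (−0.50 to −0.01) and PAPD4 at −0.20 (−0.38 to −0.02).

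The precursors whose log2 ratio lay nearest to the 0.52 of the summed family were bta-let-7a-1 at 0.51, bta-mir-34a at 0.55, bta-mir-1-1 at 0.56, bta-mir-374b at 0.56 and bta-mir-424 at 0.47. Likeness here is the distance in ratio over 2 libraries only, at most 0.054 for these 5. The nearest, bta-let-7a-1, had 321 RPM in HH and 217 RPM in LL. Short tags, however, were 0 of its 2278 reads in HH, which allows up to 0.132% (3 reads), and 0.0509% of its reads in LL. Its ratio, by which it was picked, was thus like that of the miR-26 family, and the lengths of the tags listed under its name were not. No tag was listed under more than 1 precursor, and the other let-7a precursors did hold short tags. They were 0.57% of bta-let-7a-3 reads in HH and 2.77% in LL, and 0.23% of bta-let-7a-2 reads in HH and 2.61% in LL. Whether short tags of let-7a were listed under those names instead was not tested.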

How the data were processed

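By the labels' protocols, RNA-seq and small RNA libraries were made from primary bovine mammary epithelial cells after TRIzol extraction and DNase I treatment. The protocols name an Ion Total RNA-Seq kit, while the titles of the small RNA libraries carry the word Solexa. The part of the kit or the sequencing method in the tag lengths was not tested. The authors deposited whole-number read counts per gene (columns HH and LL per the file headers) and, for each small RNA library, distinct tags with length, read counts, sequence and a precursor name. Every listed tag has the class miRNA, so totals are miRNA reads and not library depths. Trimming, aligner, counter, genome build and miRNA database were not stated, and genome positions are therefore left out.

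Tags of at least 18 nt were summed per precursor. A tag was placed on the 22-nt tag of its miRNA by its first 12 bases. RPM and CPM are counts per 1000000 listed reads or gene counts. Log2 ratios of the deposited counts used TMM factors (edgeR 4.0.16 in R 4.3.3) and exact (Clopper-Pearson) 95% intervals. Odds ratios used exact conditional intervals (scipy 1.17.1). No p-value was computed, since each code has 1 library of each kind. The ratio intervals and calls were tried on simulated counts that held counting error only, scaled by totals. TMM scaling, tag placement, shares and odds ratios were not part of that trial. Scalings by total, DESeq2 1.42.0 size factors and upper quartile, count minimums, a point ratio, tags of at least 21 nt and other tag choices were tried. From each pathway list the 3 genes with the largest ratios and every gene called were named, markers were given as summed CPM, and 5 nearest precursors were taken. Members and lists were chosen with earlier results of these data known. RefSeq's table of ARS-UCD2.0 gave gene names and host genes.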

Additional observations from a re-analysis of the deposited data

Results flagged for a closer look

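The gene table of the RNA-seq libraries also lists the miRNA genes, outside the comparisons above. The row MIR26A-2 had 6 counts in HH and 11 in LL, above the 3 counts that a count of 0 allows. MIR26A-1 had 3 counts in HH and 1 in LL, and MIR26B had 0 in both. In the small RNA libraries bta-mir-26a-2 had 1 read in HH and 3 in LL, although its 5′-arm tags match those of bta-mir-26a-1 apart from 1 leading base.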

How the results depend on the processing

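No paired analysis was possible because each code has 1 library of each kind. Of 71 recomputed values for the main comparisons 49 stayed within the counting interval of the value or within 1.5 times the count, and 22 moved. For bta-mir-26a-1 the log2 ratio was 0.18 with DESeq2 size factors, 0.063 with the upper quartile, 1.66 with tags of at least 21 nt and −0.11 with the GC line removed, against 0.36. For bta-mir-26b it was 0.51, 0.39, 0.58 and −0.13 under the same settings, against 0.69. The summed family was at 0.58 with total scaling, 0.34 with DESeq2, 0.22 with the upper quartile and 0.97 with tags of at least 21 nt, against 0.52. The miR-26a share was 45.3% in HH and 28.2% in LL with tags of at least 21 nt. Counting only 18 to 19 nt as short, an alternative chosen after seeing the data, gave 9.33% in HH and 67.4% in LL for bta-mir-26a-1, and 1.74% in HH and 10.3% in LL for bta-mir-26b. Genes called higher in HH were 452 by the point ratio in place of 240. Genes called higher in LL were 229 by the point ratio, 199 with at least 20 counts and 218 with no minimum, in place of 128. Scalings shift every ratio alike by construction, and the cause of the other shifts was not tested. The host ratios stayed within their intervals, although CTDSP2 was at −0.02 under the upper quartile. Matching to a precursor sequence was not run, and tags within the 22-nt sequence were used in its place. Depth limits the 3′ arms and bta-mir-26a-2, which rest on at most 21 reads in a library.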
